A study of Drosophila melanogaster with 10 samples.

Results

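The respiratory chain subunits described here are the 80 genes of the deposited TPM table, among 14310 in all, whose symbol starts with ND-, SdhA to SdhD, UQCR-, COX and a digit, or ATPsyn. The rule uses the symbol and no measured value, and 40 belong to complex I, 6 to complex II, 8 to complex III, 11 to complex IV and 15 to complex V. Of the 80, 18 are copies of another subunit gene and carry its name with an L, or an L and a digit, added. The fly keeps such copies for several mitochondrial proteins, and many are known for expression in the testis. The genes lie on chromosome arms 2L (14), 2R (16), 3L (17), 3R (18), 4 (2) and X (13).

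The chain is built into the inner mitochondrial membrane. Complex I takes electrons from NADH and complex II takes them from succinate, complex III passes them from ubiquinol to cytochrome c, and complex IV, cytochrome c oxidase, hands them to oxygen. The proton gradient so made drives complex V, the ATP synthase. Complex II is encoded wholly in the nucleus, while each of the others also holds subunits from the mitochondrial genome, so that both genomes supply parts of one machine. Enterocytes are the absorptive cells that make up most of the midgut epithelium, and they are rich in mitochondria.

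RNA was sequenced from the midguts of adult males, 20 per extraction, fed yeast alone until day 7 after eclosion, at 25 °C with 12 h of light and 12 h of dark. The 5 libraries labelled dHNF4 RNAi came from w/Y males with mex-GAL4/+ and UAS-dHNF4 RNAi NIG9310-R2/+, in which the mex driver, active in enterocytes, expresses a hairpin against Hnf4. The 5 libraries labelled control came from w1118/Y ; ; UAS-dHNF4 RNAi NIG9310-R2/+ males, which carry the same hairpin transgene with no driver. The driver is therefore present in the dHNF4 RNAi group alone, and 1 RNAi line was used. Hnf4 encodes the fly counterpart of vertebrate HNF4, a nuclear receptor, and is known in flies as a regulator of lipid oxidation and mitochondrial function.

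Hnf4 itself (FBgn0004914) stood at 42.1, 46.1, 47.4, 44.7 and 48.0 TPM in the libraries labelled dHNF4 RNAi, against 36.5, 45.8, 41.8, 36.3 and 33.5 TPM in control libraries. The targeted transcript was thus not lower in TPM under the label dHNF4 RNAi, and the groups overlapped. Whether reads from the expressed hairpin were counted in this value is not stated in the sources used here. Its log2 fold change was 0.24 on the TPM scale (limma, adjusted p = 0.0199) and -0.35 after median-of-ratios scaling (limma, adjusted p = 0.000815). Every direction below is therefore that of the libraries labelled dHNF4 RNAi.

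TPM gives each gene's transcripts, corrected for length, as parts of a fixed total. It does not carry the number of reads, and the depth of the libraries is unknown. Fold changes are log2 fold changes of TPM + 1 unless another scale is named, dHNF4 RNAi over control, and a gene was called at an adjusted p under 0.05 over the 8784 genes that averaged 1 TPM or more. The median gene was higher by 0.55 (log2) in the dHNF4 RNAi libraries, a shift common to much of the table. Median-of-ratios scaling, which divides each library by the median ratio of its genes to their mean over libraries, brought that median to 0.01. Both scales are given, since a member that moved with the median gene passes on the first and not on the second. Across genes, the lowest correlation between 2 libraries of a group was 0.968, and the highest between the groups was 0.925. In bulk tissue, fewer cells of a type and less RNA per cell cannot be told apart.

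The nuclear subunits were abundant, and together they took a larger share of the dHNF4 RNAi libraries. Their summed level was 22164, 23251, 23846, 25354 and 23130 TPM in the dHNF4 RNAi libraries and 14954, 15072, 16617, 17816 and 17280 TPM in the control libraries. The groups did not overlap. The sum averaged 23549 ± 1175 TPM in dHNF4 RNAi and 16348 ± 1291 TPM in control libraries (SD, n = 5 each), a ratio of 1.44, or 2.41% of all TPM against 1.67%. The ratio of the median gene between the groups was 1.46, so the summed chain moved by about as much as the median gene.

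All 5 complexes showed this difference with no overlap between groups. The complex V sum averaged 8238 ± 404 TPM in dHNF4 RNAi and 5349 ± 486 TPM in control libraries, a ratio of 1.54, and complex II averaged 852 ± 46.2 TPM in dHNF4 RNAi and 561 ± 39.0 TPM in control libraries, a ratio of 1.52. The ratios were lower for complex I (7298 ± 374 TPM in dHNF4 RNAi and 5243 ± 390 TPM in control libraries, 1.39), complex IV (4822 ± 248 TPM and 3490 ± 273 TPM in the same order, 1.38) and complex III (2338 ± 122 TPM in dHNF4 RNAi and 1705 ± 112 TPM in control libraries, 1.37).

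**Figure D1:**
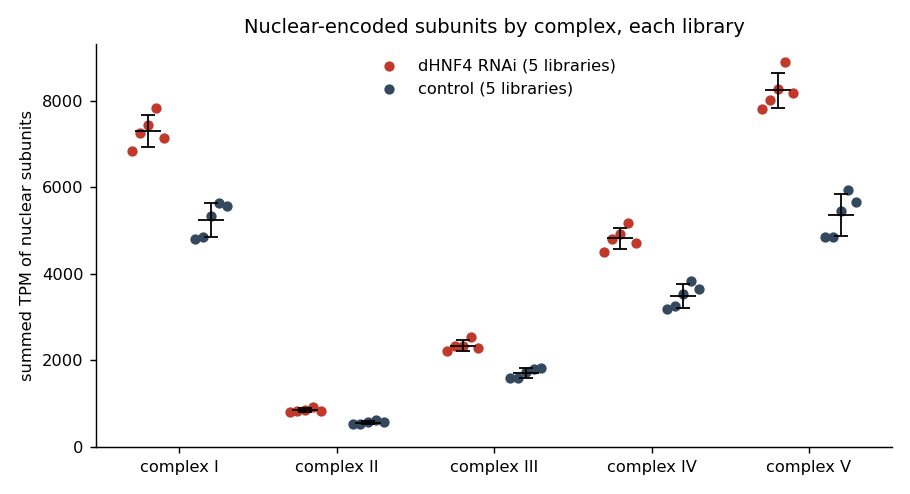
Summed TPM of the nuclear-encoded subunits of each complex (y axis, from 0) in each of the 5 dHNF4 RNAi libraries (red, left of each pair) and the 5 control libraries (dark blue); lines are the mean and bars the SD. In every complex the lowest dHNF4 RNAi library lies above the highest control library, with mean ratios between 1.37 and 1.54.

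Of the 80 genes, 63 passed the filter on low values and were tested; the other 17 were 16 copies and ND-B8. On the TPM scale 60 were called higher, 2 were called lower and 1 did not pass, beside a background of 83.2% of all genes called (66.9% higher and 16.3% lower). The members' median fold change was 0.54 (log2), beside 0.55 over all genes tested and 0.52 over the 3913 genes that averaged 20 TPM or more. The groups did not overlap in 58 of the 63, beside 72% of all genes tested. In 57 of these the dHNF4 RNAi libraries were the higher ones, beside 60.3% of all genes tested.

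After median-of-ratios scaling most of these calls were gone. There, 4 members were higher (ND-30, SdhB, ATPsynD and ATPsyngamma), 15 were lower and 44 did not pass, which makes 30.2% of the tested members called, beside 71.4% of all genes (35.6% higher and 35.8% lower). The members' median was -0.06 on that scale. Of all libraries, leaving out control replicate 2 moved the scaled count of lower members most. Its divisor in that scaling was 0.91, against 0.76 to 0.83 in the other control libraries. Without control replicate 2, 4 members were higher and 29 lower on the median-of-ratios scale, and 60 were higher and 2 lower on the TPM scale. Of the 8784 genes tested, the same fits called 3153 higher and 3174 lower on the median-of-ratios scale, and 5981 higher and 1356 lower on the TPM scale.

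The 61 members with a mean of at least 20 TPM, which are the 62 genes that are no copies less ND-B8, kept close to each other. Their fold changes ran between 0.18 and 0.88 with an SD of 0.16, against an SD of 1.00 over all genes at that level of expression. Their control means ran between 88.9 TPM and 1414 TPM. Across the 61, fold change went with neither expression level (Pearson's r 0.011, Spearman's rho 0.001) nor, more than weakly, with exon length (r 0.258, rho 0.307); these are descriptions over genes that share libraries. The 61 transcripts are short, with a median summed exon length of 871 bases against 2011 bases over the tested genes.

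**Figure D2:**
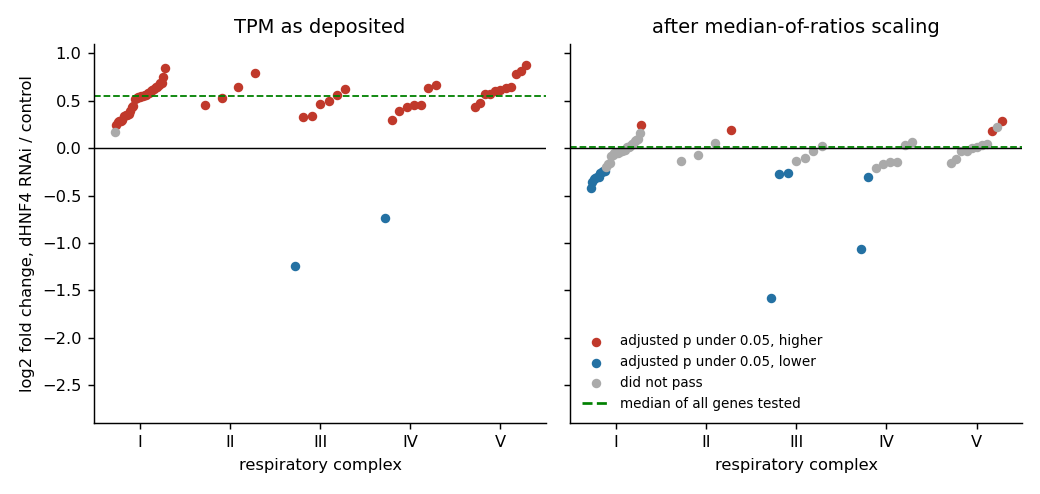
Log2 fold change (y axis, dHNF4 RNAi over control) of the 63 tested subunit genes by complex (x axis) on the TPM scale (left) and after median-of-ratios scaling (right); each point is a gene, and the dashed line is the median of all genes tested. On the left 60 points are called higher around the all-gene median of 0.55, while on the right 4 are called higher and 15 lower around 0.01, and the lowest pair on both sides is UQCR-11L and COX6AL.

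Within each group, the same libraries held the highest or lowest values of many members. How far other genes share this order was not counted. Among the 61, dHNF4 RNAi replicate 4 was the highest of its group in 44 and replicate 1 the lowest in 37. Among the control libraries, replicate 4 was the highest in 40, while replicates 1 and 2 held the lowest value in 39 and 22. The median coefficient of variation of a member over 5 libraries was 5.95% in dHNF4 RNAi and 7.74% in control libraries.

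Complex I has a core of subunits, conserved since bacteria, that carry the flavin and the iron-sulfur clusters, and a larger shell of accessory subunits. Of its 33 tested genes 32 were higher on the TPM scale, with a median fold change of 0.54, and 1 was higher and 10 were lower after median-of-ratios scaling. Of the 7 nuclear core genes all were higher on the TPM scale (median 0.56), with 1 higher and 1 lower after scaling. Of the 26 accessory genes 25 were higher on the TPM scale (median 0.53), and 0 were higher and 9 lower after scaling. Without control replicate 2 the scaled counts were 1 higher and 2 lower for the core, and 0 higher and 13 lower for the accessory genes.

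The most abundant complex I member was ND-MLRQ, the counterpart of a small human subunit that is now usually placed with complex IV. It stood at 610, 669, 715, 770 and 741 TPM in dHNF4 RNAi libraries, against 517, 537, 554, 653 and 601 TPM in control libraries. The groups overlapped, since control replicate 4 lay above dHNF4 RNAi replicate 1. Its fold change was 0.29 (log2, SE 0.083; limma, adjusted p = 0.00616) on the TPM scale and -0.31 after median-of-ratios scaling. ND-AGGG, an accessory membrane-arm subunit, came next with 462, 481, 453, 524 and 457 TPM in dHNF4 RNAi libraries, against 358, 348, 387, 443 and 434 TPM in control libraries. Here the groups did not overlap, with fold changes of 0.28 on the TPM scale and -0.32 after scaling.

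The largest fold change of complex I belonged to ND-30, a core subunit of the peripheral arm. ND-30 stood at 174, 185, 176, 185 and 177 TPM in dHNF4 RNAi libraries, against 90.3, 93.4, 106, 103 and 105 TPM in control libraries. The fold change was 0.84 (log2, SE 0.059; limma, adjusted p = 1.84e-07), and it stayed at 0.25 after median-of-ratios scaling. The spread within each group was small beside the gap between them. ND-39, an accessory subunit of the same arm, had 225, 222, 233, 242 and 233 TPM in dHNF4 RNAi libraries, against 126, 129, 140, 146 and 141 TPM in control libraries. Its fold change was 0.76 on the TPM scale, and 0.16 after scaling, which did not pass.

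At the other end stood ND-MNLL, a small accessory membrane-arm subunit whose name ends in L without being a copy. It had 164, 161, 172, 189 and 163 TPM in dHNF4 RNAi libraries, against 134, 137, 153, 168 and 161 TPM in control libraries. These ranges overlapped, and its fold change of 0.18 (log2, SE 0.077) was the only one of the 63 that did not pass on the TPM scale (limma, adjusted p = 0.0517). After median-of-ratios scaling it was lower by 0.42, the lowest of the complex. ND-B14.7, an accessory subunit of the membrane arm, had 171, 178, 183, 201 and 177 TPM in dHNF4 RNAi libraries, against 141, 145, 163, 157 and 162 TPM in control libraries. It was higher by 0.24 on the TPM scale, with no overlap, and was -0.35 after scaling. ND-B8, another accessory subunit, was listed at 0.201, 0, 0, 0.369 and 0.202 TPM in dHNF4 RNAi libraries, against 0, 0, 0, 0.143 and 0 TPM in control libraries, and it was the only member that is no copy with a mean under 1 TPM. Which transcripts of ND-B8 the authors counted was not checked, so the values say only how the table lists it.

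Complex II, succinate dehydrogenase, is also an enzyme of the citric acid cycle. Its 4 main genes were all higher on the TPM scale (median 0.59), and 1 was higher and 0 were lower after median-of-ratios scaling, or 1 and 1 without control replicate 2. The higher gene was SdhB, which encodes the iron-sulfur subunit. SdhB stood at 208, 222, 242, 238 and 232 TPM in dHNF4 RNAi libraries, against 130, 127, 133, 137 and 130 TPM in control libraries. Control libraries held SdhB within a narrow range, and the fold change was 0.79 (log2, SE 0.054; limma, adjusted p = 1.61e-07) on the TPM scale and 0.19 after scaling.

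SdhA, the flavoprotein that oxidises succinate, had a fold change of 0.46 on the TPM scale and -0.14 after scaling, with means of 139 ± 9.41 TPM in dHNF4 RNAi and 101 ± 7.63 TPM in control libraries. The membrane anchors SdhC and SdhD had fold changes of 0.53 and 0.65 on the TPM scale, and -0.07 and 0.05 after scaling. SdhC was the most abundant of the complex, at 344 ± 25.2 TPM in dHNF4 RNAi and 239 ± 24.6 TPM in control libraries.

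Complex III, the cytochrome bc1 complex, had 6 tested genes that are no copies. All were higher on the TPM scale (median 0.48), and 0 were higher and 2 lower after median-of-ratios scaling, or 0 and 4 without control replicate 2. The 2 were UQCR-14 and UQCR-C1, a core protein on the matrix side. UQCR-14 stood at 457, 518, 490, 545 and 475 TPM in dHNF4 RNAi libraries, against 366, 363, 407, 404 and 420 TPM in control libraries. UQCR-C1 stood at 380, 380, 393, 413 and 397 TPM in dHNF4 RNAi libraries, against 284, 288, 327, 332 and 334 TPM in control libraries. In both genes the groups did not overlap, and the fold changes were 0.34 and 0.33 on the TPM scale and -0.26 and -0.27 after scaling. UQCR-11, the hinge subunit in mammals, had the largest fold change of the complex at 0.62 (339 ± 29.9 TPM in dHNF4 RNAi and 220 ± 20.2 TPM in control libraries), followed by the small subunit UQCR-Q at 0.56. After scaling these were 0.02 and -0.04.

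Complex IV had 7 tested genes that are no copies, again all higher on the TPM scale (median 0.46). After median-of-ratios scaling 0 were higher and 1 was lower, or 0 and 5 without control replicate 2. COX5A, the most abundant of them, stood at 810, 856, 874, 921 and 860 TPM in dHNF4 RNAi libraries, against 627, 661, 725, 761 and 742 TPM in control libraries. It was the gene lower after scaling, at -0.30, with a fold change of 0.30 on the TPM scale. COX4, a regulatory subunit that contacts the mitochondrially encoded core, stood at 774, 786, 864, 827 and 817 TPM in dHNF4 RNAi libraries, against 548, 552, 631, 619 and 612 TPM in control libraries. It had fold changes of 0.46 and, after scaling, -0.14. The small membrane subunits COX7A and COX7C had the largest fold changes of the complex, 0.67 and 0.63 on the TPM scale, and 0.07 and 0.03 after scaling.

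Complex V had the largest median of the 5 complexes. Its 11 tested genes were all higher on the TPM scale (median 0.62), and 2 were higher and 0 lower after median-of-ratios scaling (median 0.02), or 2 and 2 without control replicate 2. ATPsynC, which forms the rotating ring of the membrane sector, was the most abundant of all 80 genes. It stood at 2015, 1979, 1934, 2376 and 2150 TPM in dHNF4 RNAi libraries, against 1255, 1226, 1391, 1656 and 1542 TPM in control libraries. The fold change was 0.57 on the TPM scale and -0.03 after scaling, so ATPsynC lay near the median gene. ATPsynbeta, the catalytic subunit, averaged 1064 ± 44.8 TPM in dHNF4 RNAi and 696 ± 69.9 TPM in control libraries, with a fold change of 0.62 on the TPM scale and 0.02 after scaling.

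ATPsynD, a subunit of the peripheral stalk, had the largest fold change of all members. It stood at 603, 674, 669, 673 and 627 TPM in dHNF4 RNAi libraries, against 331, 312, 366, 384 and 368 TPM in control libraries. The fold change was 0.88 (log2, SE 0.068; limma, adjusted p = 3.42e-07) on the TPM scale and 0.28 after scaling. ATPsyngamma, the central rotor shaft, stood at 491, 507, 536, 521 and 497 TPM in dHNF4 RNAi libraries, against 285, 291, 298, 304 and 305 TPM in control libraries. Its fold change was 0.78 (limma, adjusted p = 8.10e-08) and 0.18 after scaling. ATPsynF, a small membrane subunit, had 771 ± 51.6 TPM in dHNF4 RNAi and 437 ± 39.6 TPM in control libraries, with 0.82 on the TPM scale and 0.22 after scaling, which did not pass. The lowest fold changes of the complex were those of ATPsynCF6, the coupling factor of the peripheral stalk (0.44), and ATPsynG, a membrane subunit (0.48), at -0.16 and -0.12 after scaling.

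To compare subunits with each other free of the scaling, each library was also centred on the mean log2 value of the 61 abundant members. On this chain mean 10 members were higher and 15 lower, where the background was 62.5% of all genes called (30.4% higher and 32.1% lower); the members set the centre, so nothing was read from their smaller share. The members' counts ran between 6 and 13 higher and between 12 and 16 lower when each library was left out in turn. They were 13 higher and 16 lower without control replicate 2, and 6 higher without dHNF4 RNAi replicate 2 or without control replicate 3. Over all genes tested, the same fits gave 2334 to 3409 higher and 2646 to 2877 lower. With 0.1 or 5 added to TPM in place of 1, the members' counts stayed at 10 and 15. The counts over all genes were 3026 higher and 2654 lower with 0.1, and 1686 and 3632 with 5.

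The members that rose most against the chain mean belonged to complex V, to the peripheral arm of complex I and to complex II. They were ATPsynD (0.36), ND-30 (0.32), ATPsynF (0.29), SdhB (0.26), ATPsyngamma (0.25) and ND-39 (0.23), followed by ND-49 (0.16), ND-B12 (0.16), ND-ACP (0.14) and COX7A (0.14). ND-49 is a core subunit near the site of quinone reduction, and ND-ACP is the mitochondrial acyl carrier protein. By complex the higher members were 5 of 33 in complex I, 1 of 4 in complex II, 0 of 6 in complex III, 1 of 7 in complex IV and 3 of 11 in complex V.

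Against the chain mean, 9 accessory subunits and 1 core subunit of complex I were lower, with ND-MNLL (-0.35), ND-B14.7 (-0.28), ND-AGGG (-0.25), ND-SGDH (-0.24), ND-B18 (-0.24) and ND-MLRQ (-0.23) first. The core subunit was ND-51 (-0.17), which binds NADH. ND-B14.5B (-0.19), ND-13B (-0.18) and ND-B17 (-0.17) completed complex I. Outside it, COX5A (-0.23), UQCR-C1 (-0.20) and UQCR-14 (-0.19) were lower, and so were the copies UQCR-11L (-1.77) and COX6AL (-1.26). Both copies lie near 1 TPM, so their values here hold in part the shift of the chain mean itself. On the TPM scale they were at -1.25 and -0.73. No member of complex II or V was lower, and the lowest of their estimates were -0.07 for SdhA and -0.09 for ATPsynCF6, which did not pass.

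**Figure D3:**
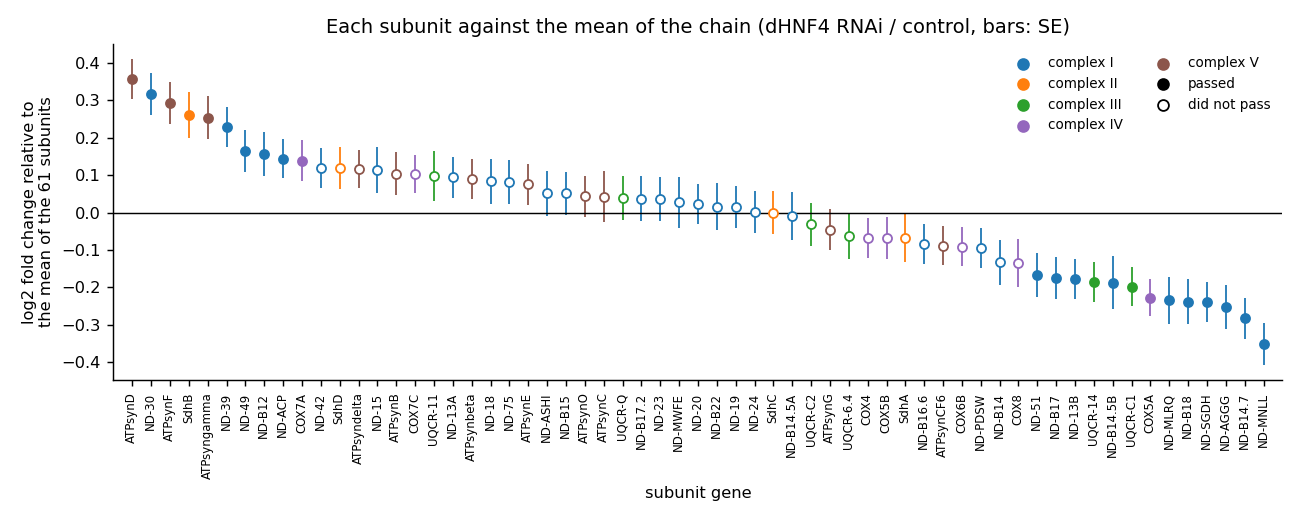
Log2 fold change (y axis, dHNF4 RNAi over control, bars are SE) of each of the 61 subunit genes that averaged 20 TPM or more (x axis, ordered by value), relative to the mean of the 61, coloured by complex; filled points passed at an adjusted p under 0.05. ATPsynD at 0.36 and ND-30 at 0.32 stand highest, and ND-B14.7 at -0.28 and ND-MNLL at -0.35 lowest.

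The 18 copies stood far below their namesakes. The mean of a copy was at most 3.03 TPM in either group, and 5 were listed at 0 in all 10 libraries (ND-20L, ND-24L, ND-B14.5AL, UQCR-14L and ATPsynGL). Namesakes stood at 94.2 TPM or more on average in each group. COX5BL lies 122 bases from COX5B and COX7AL 2625 bases from COX7A on the same arm, and copies with similar sequence divide reads with their namesakes by estimation, so these low values are uncertain. Beside them, the testis and spermatocyte marker list summed to 8.91 to 12.7 TPM in dHNF4 RNAi and 15.6 to 19.3 TPM in control libraries, and 2 of its 15 genes, bol and topi, were tested and were lower on both scales. They made up 92.2% to 95.7% of the sum in 4 dHNF4 RNAi libraries and 94.2% to 98.8% in control libraries, but 67.3% in dHNF4 RNAi replicate 3, where the rest of the list reached 4.15 TPM. That library held most of the summed TPM of Mst84Da (1.54 TPM), ocn (0.860 TPM) and Mst87F (0.531 TPM), genes of late sperm development. Several untested genes of the list had higher means in dHNF4 RNAi, among them fzo at 0.432 TPM in dHNF4 RNAi and 0.290 TPM in control libraries, and the sperm chromatin genes ProtA and ProtB were listed at 0 in every library. Whether the copies' values move with these markers was not tested.

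The copies UQCR-11L and COX6AL passed the filter, and both were lower on both scales. They passed it through the control group, since both averaged under 1 TPM in dHNF4 RNAi libraries, so among copies at this level the filter favoured genes that differ. UQCR-11L, a copy of the complex III hinge subunit, stood at 0.214, 0.594, 1.34, 0.246 and 1.29 TPM in dHNF4 RNAi libraries, against 2.65, 2.33, 4.68, 2.88 and 2.63 TPM in control libraries. The groups did not overlap, and the fold change was -1.25 (log2, SE 0.22; limma, adjusted p = 0.000232) on the TPM scale and -1.58 after scaling. COX6AL, a copy of the complex IV subunit gene levy, stood at 0.472, 0.438, 0.787, 1.29 and 1.26 TPM in dHNF4 RNAi libraries, against 3.17, 1.86, 2.63, 1.22 and 1.59 TPM in control libraries. Here the groups overlapped at control replicate 4, and the fold change was -0.73 (log2, SE 0.20; limma, adjusted p = 0.00478). With no filter both were still lower, at the same fold changes (limma, adjusted p = 0.000531 for UQCR-11L and 0.00777 for COX6AL), and without dHNF4 RNAi replicate 3 the fold changes were -1.37 and -0.73. Their namesakes UQCR-11 and levy were both higher on the TPM scale, at 0.62 and 0.62, and did not pass after scaling. UQCR-11L and COX6AL, with means of 1.89 and 1.47 TPM over the 10 libraries, were also the members just inside the filter.

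ND-49L, a copy of the core subunit ND-49, lay below the filter at 0.705, 0.872, 0.554, 0.531 and 0.481 TPM in dHNF4 RNAi libraries, against 0.0242, 0.0342, 0, 0 and 0.0220 TPM in control libraries. All 5 dHNF4 RNAi libraries lay above all 5 control libraries. In the fit without a filter its fold change of TPM + 1 was 0.68 (limma, adjusted p = 2.75e-06), and the authors' deposited table lists a log2 fold change of 4.80 with an unadjusted p of 5.75e-09. ND-51L1 averaged 0.125 ± 0.0383 TPM in dHNF4 RNAi and 0.219 ± 0.0482 TPM in control libraries with overlap, and the authors' deposited table lists -2.06 with an unadjusted p of 0.00867. Among the rest, ATPsynepsilonL with a mean of 0.649 TPM over the 10 libraries and ATPsynbetaL with 0.347 TPM lay just outside the filter, and in both the groups overlapped. COX4L averaged 0.345 TPM in dHNF4 RNAi and 0.192 TPM in control libraries, with overlap. In the same order COX7AL averaged 0.227 and 0.289 TPM, COX5BL 0.206 and 0.260 TPM, and SdhBL 0.0243 and 0.0609 TPM. ND-51L2 averaged 0 and 0.0131 TPM, and these copies overlapped too. With no filter COX4L was called higher at 0.17 (limma, adjusted p = 0.0425) and ND-51L1 lower at -0.12 (limma, adjusted p = 0.0129).

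**Figure D4:**
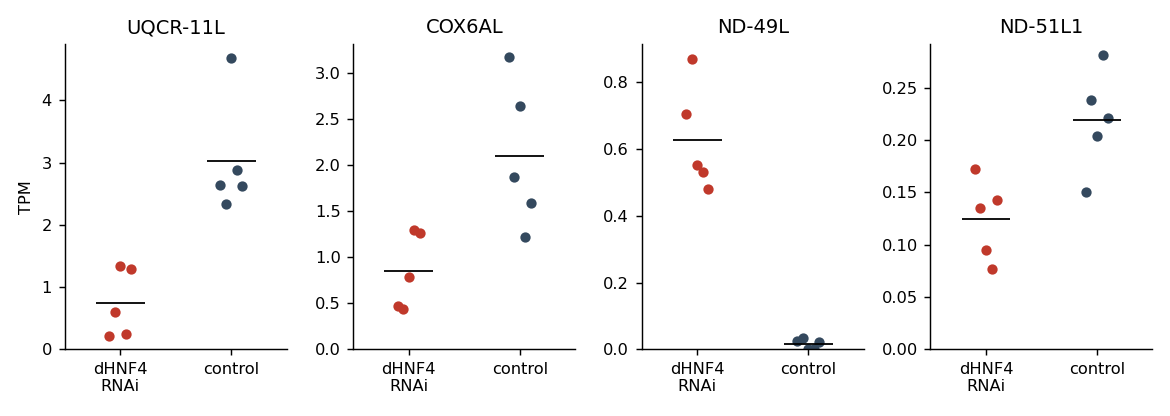
TPM (y axis of each panel, from 0, on its own scale) of 4 copies in each dHNF4 RNAi library (red, left) and control library (dark blue, right), with lines at the means. UQCR-11L and COX6AL are lower in dHNF4 RNAi, at means of 0.737 and 0.850 TPM against 3.03 and 2.10 TPM, while ND-49L is near 0.628 TPM in dHNF4 RNAi and 0.0161 TPM in control libraries and was not tested at the filter.

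The mitochondrial genome encodes the other subunits of complexes I, III, IV and V. Their summed level averaged 12569 ± 1508 TPM in dHNF4 RNAi and 8780 ± 1209 TPM in control libraries, with no overlap, and most of it came from the complex IV transcripts mt:CoI, mt:CoII and mt:CoIII. The ratio of nuclear to mitochondrial sums was 1.89 ± 0.227 in dHNF4 RNAi and 1.90 ± 0.366 in control libraries, and the groups overlapped. By complex the ratio averaged 14.7 in dHNF4 RNAi and 12.4 in control libraries for complex I, 3.18 and 2.47 for complex III, 0.453 and 0.502 for complex IV, and 15.2 and 10.2 for complex V, in the same order of groups, each with overlap.

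Gene by gene the mitochondrial transcripts differed in both directions. On the TPM scale 5 of 13 were higher, namely mt:CoIII (0.68), mt:CoI (0.57), mt:CoII (0.53), mt:ND4 (0.46) and mt:ND5 (0.36), and 2 were lower, mt:ND4L (-0.77) and mt:ND6, which averaged 2.72 TPM in dHNF4 RNAi and 6.79 TPM in control libraries. Only in mt:CoI, mt:CoII and mt:CoIII did the groups not overlap. After median-of-ratios scaling 0 were higher and 6 lower, among them mt:Cyt-b (-0.51) and mt:ND1 (-0.51). Several of these transcripts overlap or share a precursor RNA, and how reads were divided between them is not stated.

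Of the 12 nuclear chain genes given that the name pattern misses, 11 were found and 8 tested. On the TPM scale 7 were higher and 0 lower, and after median-of-ratios scaling 1 was higher and 2 were lower, or 1 and 5 without control replicate 2. The medians were 0.49 on the TPM scale and -0.11 after scaling. The gene higher on both scales was blw, the alpha subunit of ATP synthase, at 1071 ± 33.9 TPM in dHNF4 RNAi and 590 ± 54.9 TPM in control libraries, with 0.86 on the TPM scale and 0.26 after scaling. Cyt-c-p, the cytochrome c that carries electrons between complexes III and IV, did not pass on the TPM scale at 0.15 (limma, adjusted p = 0.124) and was -0.45 after scaling. The complex IV subunit cype was at 0.32 and -0.28. The Rieske protein RFeSP (0.47), Cyt-c1 (0.51) and ox (0.47) of complex III, levy (0.62) of complex IV and sun (0.62), the epsilon subunit of ATP synthase, were higher on the TPM scale alone.

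Genes for building the complexes, and nuclear genes of mitochondrial transcription, replication and biogenesis, had larger median fold changes than the subunits in these libraries. Of the assembly factors, 13 of 25 names were found, all 13 were higher on the TPM scale (median 0.83), and 8 were higher and 2 lower after median-of-ratios scaling (median 0.29), beside the background of 35.6% higher. Of the genes of mitochondrial transcription, replication and biogenesis, 13 of 14 names were found, 11 were higher and 0 lower on the TPM scale (median 0.85), and 9 were higher and 2 lower after scaling (median 0.34). Without control replicate 2 the scaled counts were 7 higher and 4 lower for assembly, and 9 higher and 1 lower for transcription, replication and biogenesis. The difference between these lists and the subunits was not tested.

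The examples here were chosen after their values were seen. TFAM, which packages mitochondrial DNA, averaged 54.8 ± 2.82 TPM in dHNF4 RNAi and 25.2 ± 1.37 TPM in control libraries, and mtSSB, which binds it as single strands, averaged 52.0 ± 3.02 TPM in dHNF4 RNAi and 22.9 ± 1.92 TPM in control libraries. Their fold changes were 1.09 and 1.15 on the TPM scale and 0.51 and 0.56 after scaling. The mitochondrial RNA polymerase gene mtRNApol and the gene mtDNA-helicase did not follow. They had 0.16 and 0.22 on the TPM scale, which did not pass, and were lower after scaling at -0.38 and -0.26. Surf1, an assembly factor of complex IV, had 1.22 on the TPM scale and 0.66 after scaling. The assembly factors lower after scaling were CIA30 (-0.24) and CG3262 (-0.18). Ccdc56 and mtTFB1 carry identical values in the table and count once in each list.

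**Figure D5:**
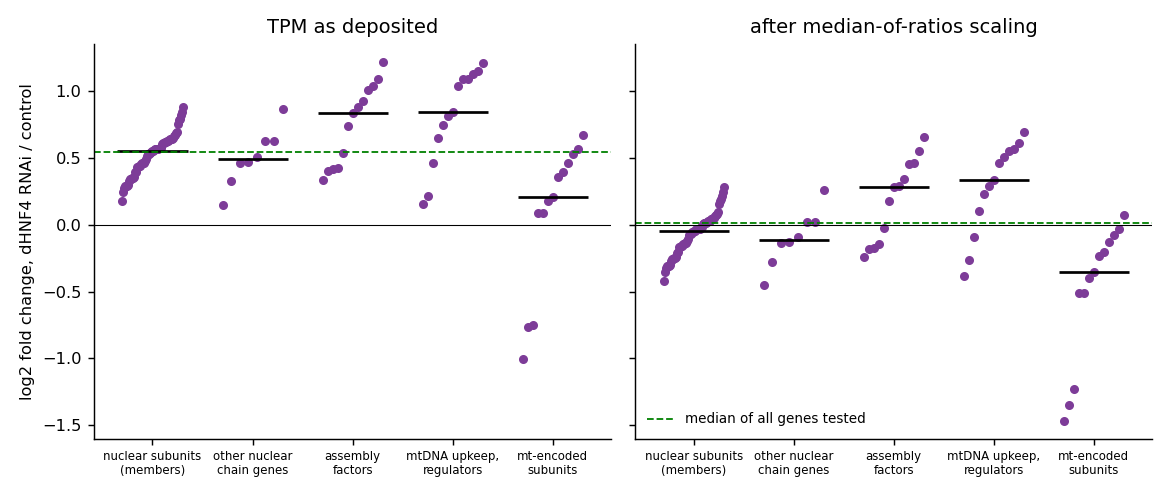
Log2 fold change (y axis, dHNF4 RNAi over control) of the genes tested in 5 groups (x axis) on the TPM scale (left) and after median-of-ratios scaling (right); each point is a gene, bars are group medians, the dashed line is the median of all genes tested, and the first group holds the 61 abundant subunits. The medians of assembly factors (0.83 and 0.29) and of genes of mitochondrial transcription, replication and biogenesis (0.85 and 0.34) stand above the all-gene medians of 0.55 and 0.01. The medians of the mitochondrially encoded subunits (0.20 and -0.35) stand below them.

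Markers of the cell types in the sample moved with the groups too, and their part in the subunit values was not tested. Markers of enterocytes, the cells the driver addresses, summed to 2907 to 3189 TPM in dHNF4 RNAi and 1618 to 2151 TPM in control libraries. Of the 6, 5 were higher and 0 lower on the TPM scale, and 3 were higher and 1 lower after scaling. The lower gene was Myo31DF, at -0.04 on the TPM scale and -0.64 after scaling. Most of the sum came from Ssk, mex1 and Tsp2A, while pdm2 averaged 11.4 TPM in dHNF4 RNAi and 5.54 TPM in control libraries. Progenitor markers, among them esg and Dl, summed to 122 to 134 TPM in dHNF4 RNAi and 17.5 to 39.7 TPM in control libraries, with 6 of 6 higher on the TPM scale and 5 after scaling. Visceral muscle, whose fibres are also rich in mitochondria, summed to 2089 to 2436 TPM in dHNF4 RNAi and 2129 to 2473 TPM in control libraries, with 1 of 10 higher and 3 lower on the TPM scale, and 0 higher and 9 lower after scaling.

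Of the 7 enteroendocrine markers, 3 were higher and 2 lower on the TPM scale, and 0 were higher and 4 lower after scaling, with sums of 311 to 357 TPM in dHNF4 RNAi and 289 to 365 TPM in control libraries. Fat body markers summed to 228 to 279 TPM in dHNF4 RNAi and 265 to 412 TPM in control libraries, with 1 of 3 tested genes higher and 2 lower on both scales. Most of the sum came from to (146 TPM in dHNF4 RNAi and 302 TPM in control libraries) and Tep4 (107 and 49.7 TPM in the same order). Lsp2 averaged 0.0406 TPM in dHNF4 RNAi and 3.83 TPM in control libraries, and Fbp1, Fbp2 and Yp1 averaged under 1 TPM in both groups. Of the tracheal markers, 0 of 3 tested were higher and 1 was lower on the TPM scale, with 3 lower after scaling. Hemocyte markers had 0 of 2 tested higher and 1 lower, with 2 lower after scaling, and the defining genes Hml and eater averaged under 1 TPM in both groups. NimC1, a phagocytosis receptor of hemocytes that lay below the filter, averaged 0.190 ± 0.0677 TPM in dHNF4 RNAi and 1.52 ± 0.514 TPM in control libraries with no overlap.

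The authors' deposited table of fold changes and unadjusted p-values lists 68 of the 80 genes, with a median log2 fold change of 0.24 beside 0.13 over all genes shared with the TPM table. At an unadjusted p under 0.05 it has 7 members higher and 2 lower, beside a background of 39.8% of its genes (21.9% higher and 17.9% lower). The 7 higher in the authors' deposited table are ND-30 (0.55), ND-B12 (0.53), SdhB (0.55), ATPsynD (0.66), ATPsynF (0.60), ATPsyngamma (0.48) and the copy ND-49L, and the 2 lower are UQCR-11L (-2.14) and ND-51L1. The authors' comparison was made on the same 10 libraries. By complex, the medians in the authors' deposited table without copies were 0.27 for complex I, 0.30 for complex II, 0.21 for complex III, 0.14 for complex IV and 0.32 for complex V.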

How the data were processed

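Per the labels' protocols, 10 libraries of midgut RNA were made with a TruSeq kit that keeps strand. The authors deposited TPM per gene, in which depth is not kept, and a table of log2 fold changes with unadjusted p-values per gene, used as the authors' own comparison. Tools named are FastQC, Trim Galore, kallisto and edgeR with build BDGP6, per the submitters' processing notes, with no role or version given. Because TPM sums to a constant, lower values of abundant transcripts raise those of all others, and similar gene copies divide reads by estimation.

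Members were found by symbol, and the members, lists and marker genes were chosen with earlier results of these data known. TPM was taken as log2(TPM + 1), which understates the change of low genes, and the comparison used limma 3.58.1 with R 4.3.3 (trended moderation, two-sided, no covariate). The fit ran over the 8784 genes that averaged 1 TPM or more (5526 lay below), with Benjamini-Hochberg adjustment at 0.05 over all of them, and it was tested on simulated data. P-values measure the spread between the labelled biological replicates of a group. Groups and replicate numbers came from the sample labels, and exon lengths and distances from the BDGP6.54 annotation (release 115).

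Median-of-ratios scaling and the other alternatives are in the closing section. The chain mean was added after seeing the data. The members named in detail were, by rule, the 2 most abundant and the 2 largest and smallest fold changes of each complex, every copy, those called lower on the TPM scale, those called alike on both scales, and up to 2 on either side of the filter. Listings of every gene past a threshold go beyond that rule. Promoter and protein sequences were not analysed here.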

Additional observations from a re-analysis of the deposited data

Results flagged for a closer look

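Over the 80 members, the 148 groups of 5 libraries with any spread were screened for a library far from the rest, and 4 stood out. For normally distributed values, chance alone gives about 1 in 20 groups. UQCR-11L in control replicate 3 was at 4.68 TPM, against 2.33 to 2.88 TPM in the other control libraries. In the other 3 groups all libraries but 1 were listed at 0: SdhAL was at 0.0269 TPM in dHNF4 RNAi replicate 2, ATPsynCF6L at 0.0740 TPM in control replicate 5 and ND-B8 at 0.143 TPM in control replicate 4. Such a group stands out whatever its value above 0 is, so the chance rate does not apply to it. UQCR-11L was called lower in dHNF4 RNAi when any 1 library was left out.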

How the results depend on the processing

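On the TPM scale 60 members were higher and 2 lower under pseudocounts of 0.1 and 5 and without the trend. Over the 8784 genes tested, these fits gave 5870 to 5879 higher and 1424 to 1433 lower. With no filter 62 members were higher and 3 lower, beside 6372 higher and 1618 lower of 13021 genes. Raising the filter to 5 TPM left 0 members lower, since both lower members lie under it. There 60 members were higher, beside 5010 higher and 1111 lower of 7052 genes. Scaling decided the rest. Median-of-ratios scaling left 4 higher and 15 lower and a members' median of -0.055 in place of 0.54. TPM recomputed after leaving out the top 20 genes and those of the mitochondrial genome gave 57 higher, 2 lower and a median of 0.42. Over all genes tested, that recomputed scale gave 5536 of 8784 higher, 1696 lower and a median of 0.44. Under median-of-ratios scaling, which moved the median gene itself to 0.01 in place of 0.55, the sign turned in 14 of the 27 named members tested, of which 7 passed as lower and 7 did not pass: ND-MNLL (-0.42), ND-B14.7 (-0.35), ND-AGGG (-0.32), ND-MLRQ (-0.31), COX5A (-0.30), UQCR-C1 (-0.27), UQCR-14 (-0.26), ATPsynCF6 (-0.16), SdhA (-0.14), COX4 (-0.14), ATPsynG (-0.12), SdhC (-0.072), UQCR-Q (-0.035) and ATPsynC (-0.032).

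When each library was left out in turn, 60 to 61 members were higher and 2 lower on the TPM scale, with a median of 0.51 to 0.57 and 7170 to 7337 genes called in all, against 7307. After median-of-ratios scaling 3 to 6 were higher and 14 to 29 lower, the 29 without control replicate 2 and 14 or 15 without any other library. Over all genes tested, that scaling gave 2965 to 3153 higher and 3008 to 3174 lower. Against the chain mean 6 to 13 members were higher and 12 to 16 lower, beside 2334 to 3409 higher and 2646 to 2877 lower over all genes tested. ND-MNLL passed without control replicate 4 or 5 (limma, adjusted p = 0.0236 and 0.0420).

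With the replicate number as a block, 61 members were higher and 2 lower on the TPM scale, 5 and 16 after median-of-ratios scaling, and 8 and 15 against the chain mean, and ND-MNLL passed (limma, adjusted p = 0.0295). Over all genes tested, the same fits gave 5849 higher and 1400 lower, 3010 and 3113, and 2692 and 2827, in that order of scales. Same-numbered libraries showed no steady likeness, since their deviations correlated at -0.165, 0.134, 0.0237, 0.358 and -0.331. So few values cannot decide whether the libraries were paired. Depth is unknown, which limits copies under 1 TPM most.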
